A study of Mus musculus with 2 samples.

Results

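The loci of 6 transcriptional regulators of the epithelial-mesenchymal transition (EMT) were examined for Smad2/3 occupancy: Snai1, Snai2, Zeb1, Zeb2, Twist1 and Hmga2. Each locus was a fixed window of the mouse genome build mm9, and a called region belonged to it when its centre lay inside. The windows measured 210 to 390 kb and 1.68 Mb in all. They held 7 of the 5847 Smad2/3 regions of the list, 4 at Snai1, 2 at Hmga2 and 1 at Zeb1. No region of the list lay in the windows of Snai2, Zeb2 and Twist1.

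The regions came from chromatin immunoprecipitation and sequencing (ChIP-seq) of NMuMG cells, an epithelial line from the mouse mammary gland that is widely used to study EMT. The cells had been exposed to TGF-beta3 at 1 ng/ml for 1.5 h, with 10% serum present, and had been kept in medium with 10 ug/ml insulin. There was 1 ChIP library, made with an antibody against both Smad2 and Smad3, and 1 input library of cells treated in the same way, for which no separate values were analysed here. No untreated cells and no replicates were analysed here, so the list gives occupancy after treatment and not its change, and no test of a difference was possible.

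Smad2 and Smad3 are phosphorylated by the activated TGF-beta receptors, join Smad4 and enter the nucleus, where they bind short DNA elements together with other factors. In epithelial cells TGF-beta signalling is known to raise several EMT regulators, which in turn repress epithelial genes such as E-cadherin. Snai1 and Snai2 are zinc finger repressors that bind E-boxes. Zeb1 and Zeb2 are repressors with zinc finger clusters at both ends and a homeodomain between them. Twist1 is a basic helix-loop-helix factor. Hmga2 is an architectural protein that binds AT-rich DNA through AT-hooks and is known to take part in the induction of Snai1 by TGF-beta.

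The DNA under the 7 regions was not read, since no mm9 sequence was used here. Promoter sequences from RefSeq (build GRCm38.p6) were found for 4 of the 6 members, Snai1, Zeb2, Twist1 and Hmga2. Those of Snai1 and Hmga2 are shown because their loci carried regions, and that of Twist1 because its locus carried none. Each is the 250 bases before the annotated start, 5′ to 3′ on the gene's own strand. Capitals mark CAGA or its complement TCTG, the core of the Smad-binding element, and GGCGC or its complement GCGCC, a GC-rich element that Smad proteins also bind. The 2 builds were not joined, so no region is placed relative to these sequences.
Snai1: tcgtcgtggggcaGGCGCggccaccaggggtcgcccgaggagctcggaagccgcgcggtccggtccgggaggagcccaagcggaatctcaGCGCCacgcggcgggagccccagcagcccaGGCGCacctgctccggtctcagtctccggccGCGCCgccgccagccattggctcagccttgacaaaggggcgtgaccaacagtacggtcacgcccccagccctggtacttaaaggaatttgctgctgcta
Hmga2: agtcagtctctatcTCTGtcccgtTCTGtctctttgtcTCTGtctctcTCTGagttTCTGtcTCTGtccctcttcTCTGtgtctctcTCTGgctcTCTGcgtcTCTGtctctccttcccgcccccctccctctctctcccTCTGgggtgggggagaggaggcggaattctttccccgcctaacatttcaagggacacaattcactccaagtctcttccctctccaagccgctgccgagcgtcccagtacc
Twist1: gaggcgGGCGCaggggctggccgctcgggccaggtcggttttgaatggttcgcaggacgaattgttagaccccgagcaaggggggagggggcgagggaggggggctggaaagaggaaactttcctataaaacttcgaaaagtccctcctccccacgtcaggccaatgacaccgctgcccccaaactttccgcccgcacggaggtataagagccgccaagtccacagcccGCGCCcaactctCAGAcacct

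The Snai1 promoter held 4 matches to GGCGC on both strands together and 0 to CAGA. Of the 32851 promoter windows of that length in the RefSeq table, 6.09% held 4 or more matches to GGCGC, and 32.0% held at least 1. The Snai1 window of 250 bases was 70% G or C. The Hmga2 promoter was of another make-up, with 11 matches to CAGA and 0 to GGCGC, and 0.128% of all promoters held 11 or more to CAGA. Most of those matches lay in a stretch rich in TC repeats, as the printed sequence shows. At Twist1 there were 2 matches to GGCGC and 1 to CAGA, the latter also a match to the longer CAGAC, which overlaps CAGA by definition. CAGA occurred in 93.3% of all promoters and CAGAC in 42.2%. The promoters of Snai1 and Hmga2 held 0 matches to CAGAC. The E-box CANNTG, the element to which Snai1, Zeb and Twist proteins bind, was found once in the Snai1 promoter and in 66.2% of all promoters, and 0 times in those of Hmga2 and Twist1. The locus of Zeb2 also carried no region. Its 4 promoters in the table, which are not printed, held 2 to 5 matches to CAGA, 0 to CAGAC and 0 to CANNTG. A single match to GGCGC was found in 1 of them. These matches describe letters in the windows and are no measure of binding.

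Occupied and unoccupied loci were equal in number, 3 of 6 each. Read against the whole list, a region was found in 25.2% of all adjacent tiles of 210 kb, the window length of Snai1, Snai2 and Twist1. The share was 34.3% at 330 kb, the length of Zeb2 and Hmga2, and 38.2% at 390 kb, the length of Zeb1. Summed over the 6 windows, these shares gave 1.82 windows with a region, against 3 found. An empty window was thus the commoner state at each length, and the absence of regions at Snai2, Zeb2 and Twist1 did not set these loci apart from most of the genome. Tiles cover gene-rich and gene-poor stretches alike, whereas each window was laid around a gene, and that difference was not adjusted for.

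**Figure D1:**
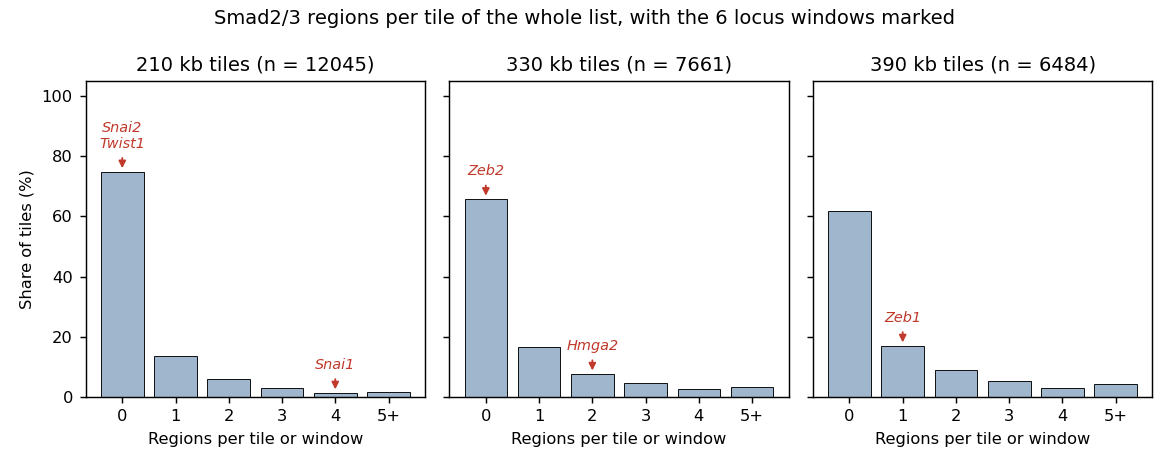
Bars give the share of tiles (%) that hold 0, 1, 2, 3, 4 or at least 5 Smad2/3 regions, for tiles of 210, 330 and 390 kb laid end to end over the whole list. Arrows mark the bar to which each locus window belongs: Snai2, Twist1 and Zeb2 at 0, Zeb1 at 1, Hmga2 at 2 and Snai1 at 4.

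Together the windows held 4.17 regions per Mb (exact Poisson 95% interval 1.68 to 8.58, counting error only). The other 5840 regions gave 2.31 per Mb, taking each chromosome from its first to its last region centre. The ratio was 1.81 with an interval of 0.726 to 3.72, which includes 1, so a density above that of the rest was not shown. This interval treats regions as independent, although 4 of the 7 were neighbours at Snai1. Without the Snai1 window the ratio was 0.884 (0.182 to 2.58), and the value above 1 therefore depended on that locus. The 7 regions covered 0.205% of the window bases, against 0.0919% for the rest of the list over the remaining span. This share also rested mostly on Snai1, where 2496 of the 3443 covered bp lay.

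Snai1 was the locus with the most regions. Its window, from 167.26 to 167.47 Mb of chromosome 2, held 4 (Poisson interval 1.09 to 10.2), or 19.0 per Mb, against 2.46 per Mb on chromosome 2 as a whole. Of all 210 kb tiles, 2.79% held 4 or more. Snai1 was singled out as the fullest of the 6 windows after the counts were seen, so this share is no test. In order along the chromosome, the first region lay at chr2:167369501-167369749, was 249 bp wide and had list number 5373. The second, at chr2:167378551-167379099, was 549 bp wide and had number 5541. Both stood among the last 584 regions of the list, and they lay 9.20 kb apart, centre to centre.

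The other 2 regions of the Snai1 window stood early in the list. The third, at chr2:167400201-167400749, was 549 bp wide and had list number 87, the earliest of all members, within the first 1.49% of the list. The last, at chr2:167401001-167402149, was 1149 bp wide with number 276, and only 51 regions of the rest of the list (0.873%) were as wide or wider. Their centres were 1.10 kb apart and their facing edges 251 bp. Among the 5827 neighbouring pairs of the list, 294 were as close in centre distance, and 158 had edges as close. Of either set, this was the single pair in which both regions had a list number of 276 or lower. These limits were the pair's own values, chosen after they were seen, so the pair was counted by construction. With 12500 bp as the largest centre distance, 12 neighbouring pairs were both as early, itself included.

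Read as a single stretch, numbers 87 and 276 spanned 1949 bp, from 167400201 to 167402149. When regions within 500 bp of each other were joined throughout the list, 9 of the 5619 resulting stretches were at least as wide, itself included. The 4 regions of the window spanned 32.6 kb in all. With 12500 bp as the largest distance between neighbours they formed 2 pairs, since 21.6 kb separated the second from the third, and at 25 kb they formed 1 run. No member thus belonged to a cluster of at least 3 regions at 12500 bp, against 13.9% of the rest of the list. With only 7 members, this shows no difference from the rest. It also depended on the window edges, since a cluster of 5 regions lay just above the Hmga2 window.

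All 4 regions lay in the upper part of the window, 4.62 to 36.6 kb above its midpoint. Below them the list was empty for 1.90 Mb, down to a region of 599 bp at chr2:165469451-165470049. Above the window the nearest region was number 607, 699 bp wide, at chr2:167602801-167603499, which is 133 kb past the edge. Within 0.5 Mb of the midpoint there were 11 regions, 7 of them above the window and 0 below it, and 2.22% of all 1 Mb tiles held as many or more. Within 1 Mb the number was 16, and 2.39% of 2 Mb tiles reached it. Both numbers include the 4 regions of the window, so these shares are not separate from that of the window itself. All regions outside the window and within 1 Mb thus lay above it. The nearest of them stood 202 kb, centre to centre, from the last of the 4.

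In the order of genes along the chromosome (RefSeq, GRCm38.p6), Snai1 stands between Rnf114 and Spata2 on its lower side and Ube2v1 and Tmem189 on its upper side. A region within the window can be nearer to one of these than to Snai1. Which gene any of the 4 regions lies in or nearest to was not determined.

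**Figure D2:**
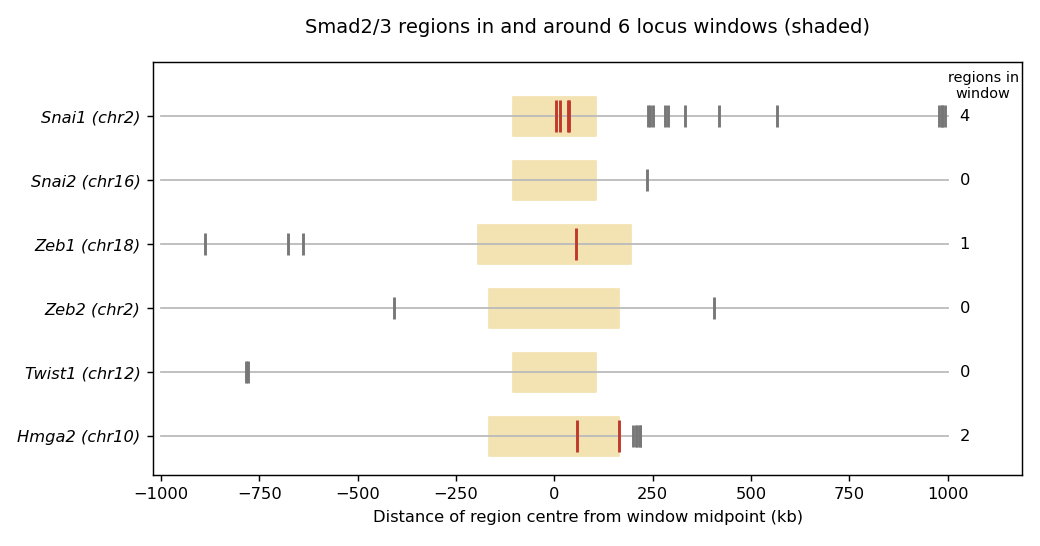
Each row is a locus, the shaded band its window, and each tick a Smad2/3 region plotted by the distance of its centre from the window midpoint (kb, to 1000 kb on either side); ticks in the window are red and others grey, with the number in the window at the right. Snai1 carries 4 regions just above its midpoint, Zeb1 has 1, Hmga2 has 2 with a group of 5 beyond its upper edge, and the bands of Snai2, Zeb2 and Twist1 are empty.

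Hmga2 carried 2 regions in its window, from 119.69 to 120.02 Mb of chromosome 10 (Poisson interval 0.242 to 7.22), and 17.9% of 330 kb tiles held as many or more. They differed in width and in list order. The first, at chr10:119913401-119913599, was 199 bp wide and had list number 5784, the latest of the members, so 98.9% of the list stood at or before it. The second, at chr10:120019501-120019949, was 449 bp wide with number 691, within the first 11.8%. The regions lay 106 kb apart.

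The count at Hmga2 depended on where the window ends. The centre of the second region was 275.5 bp inside the upper edge. Just outside, from 33.7 to 53.3 kb past that edge, stood a cluster of 5 regions between 120053601 and 120073699, in 20.1 kb. Their widths were 199 to 749 bp and their list numbers 122 to 4702. The earliest of these 5, number 122, lay at chr10:120072951-120073699 and was 749 bp wide. Below the window the nearest region was 1141 kb from the edge. Within 0.5 Mb of the midpoint there were 7 regions, a number reached by 9.48% of 1 Mb tiles. Llph and Tmbim4 are the protein-coding genes next to Hmga2 on its lower side and Msrb3 and Lemd3 on its upper side, and the regions were not assigned among them.

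Zeb1 carried a single, isolated region in its window of 390 kb, from 5.49 to 5.88 Mb of chromosome 18. It lay at chr18:5740351-5740649, 55.5 kb above the midpoint, and had list number 1395, within the first 23.9% of the list. Its width was 299 bp, and 93.5% of the 200 regions within 100 list numbers of it were as wide or wider. The next region below was 693.6 kb away and the next above 1264 kb away. In the rest of the list, 4.28% of regions had a nearest neighbour as distant. One region or more was present in 38.2% of tiles of this length, so the count itself was not unusual. Zfp438 and Arhgap12 flank Zeb1 in the gene order.

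The windows of Snai2, Zeb2 and Twist1 lay in stretches without regions that extended well past their edges. Around Snai2 (14.60 to 14.81 Mb of chromosome 16) the empty stretch measured 1329 kb. Its lower end was a region of 149 bp, number 2927, 989 kb from the window, and its upper end a region of 499 bp, number 1506, at chr16:14939651-14940149, only 130 kb from the window. Stretches of at least that length made up 8.82% of the distances between neighbouring regions, but 56.1% of the span of all chromosomes.

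Around Zeb2 (44.74 to 45.07 Mb of chromosome 2) the empty stretch was the shortest of these 3, at 813 kb. The flanking regions were number 839, of 449 bp, at chr2:44497401-44497849 and number 1109, of 299 bp, at chr2:45310351-45310649. They stood 242 and 240.5 kb from the edges, almost evenly on both sides, and neither stood later than number 1109 in the list. Stretches as long took up 69.6% of the span. In the gene order, Gtdc1 lies next to Zeb2 below and Acvr2a, which encodes an activin type II receptor of the TGF-beta superfamily, next to it above. The order gives no distance, and whether either gene lies in the window or the empty stretch was not determined.

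Around Twist1 (34.54 to 34.75 Mb of chromosome 12) the stretch was the longest, at 1807 kb, with 44.4% of the span in stretches of that length or more. The nearest regions were number 4999, of 349 bp, 673 kb below the window and number 3534, of 299 bp, 924 kb above it. No region lay within 0.5 Mb of the midpoint, which was so for 37.3% of 1 Mb tiles. Chromosome 12 carried 1.77 regions per Mb, fewer than the 2.19 to 2.53 of the other chromosomes with windows. The neighbours of Twist1 are Ferd3l, which encodes another basic helix-loop-helix factor, below and Hdac9, a class II histone deacetylase, above. The list holds no depth or enrichment, so an empty window cannot be read as unbound DNA.

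Ordered by list number, the 7 regions were divided at the widest break between them, a place taken from these same values. Regions number 87, 276, 691 and 1395 stood before the middle of the list, at number 2923, and numbers 5373, 5541 and 5784 near its end. The 3977 numbers between 1395 and 5373, 68.0% of the list, held no member. That break depended on the window edge, since number 4661, 33.7 kb above the Hmga2 window, falls within it. Both Snai1 and Hmga2 carried early and late regions, and Zeb1 an early one. The median list number of the members was 1395, against 2924.5 in the rest. With so few regions this order was not stable: the median was 3384 with the windows narrowed by 50 kb at both edges and 3032 without the locus Zeb1, both later than the rest. Whether the order is a rank by strength is not stated in the sources used here.

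Widths ranged from 199 bp at Hmga2 to 1149 bp at Snai1, with a median of 449 bp. In the rest of the list the median was 349 bp, the quartiles were 249 and 499 bp, and the narrowest and widest regions measured 99 and 1799 bp. The members therefore lay within the range of the list on both sides. Without Snai1 the median of the other 3 regions was 299 bp. Early regions of the list were wider in general, so each member was set beside the regions within 100 list numbers of it. Number 5373 at Snai1 had the width of its list neighbours' median, 249 bp. Both Hmga2 regions were slightly narrower than theirs, number 691 with 449 against 499 bp and number 5784 with 199 against 249 bp. The Zeb1 region, number 1395, was narrower, with 299 against 449 bp. The Snai1 region number 87 (549 bp) was likewise narrower than the median of 699 bp. Number 276, also at Snai1, was wider than its own list neighbours, of which 6.50% reached 1149 bp. Number 5541 was 549 bp wide where the median of its list neighbours was 249 bp, and 6% of them were as wide.

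**Figure D3:**
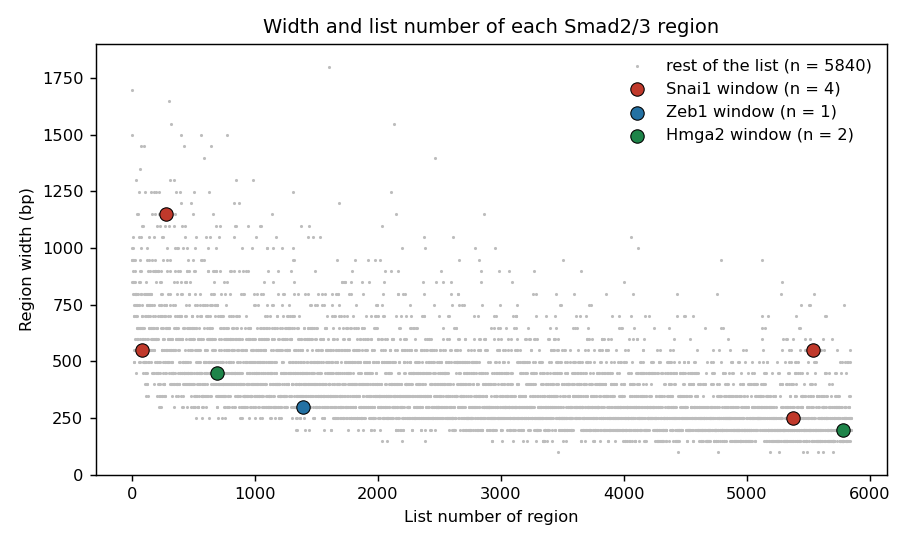
Each point is a Smad2/3 region, by list number (horizontal) and width in bp (vertical), with the rest of the list in grey and the members in colour by locus. Of the members, 4 stand at list numbers 87 to 1395 and 3 at 5373 to 5784, and the widest is the Snai1 region of 1149 bp.

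With the windows as set, the 3 occupied loci differed in spacing, though on only 4, 2 and 1 regions. At Snai1 the distance to the nearest other region was 1.10 kb for 2 regions and 9.20 kb for the other two. At Hmga2 it was 34.0 and 106 kb, and at Zeb1 693.6 kb. The median over the 7 regions was 9.20 kb, against 27.6 kb (interquartile range 4.95 to 116 kb) in the rest. Of the members, 4 (57.1%, exact binomial 95% interval 18.4 to 90.1%) had another region within 12500 bp, against 37.1% of the rest (35.9 to 38.4%). All 4 were at Snai1 and are each other's neighbours, so they are not independent, and without that locus the median distance was 106 kb. The distances at Hmga2 also depended on the window edge. With windows widened by 50 kb at both edges, 7 members had another region within 12500 bp, 3 of them above Hmga2.

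**Figure D4:**
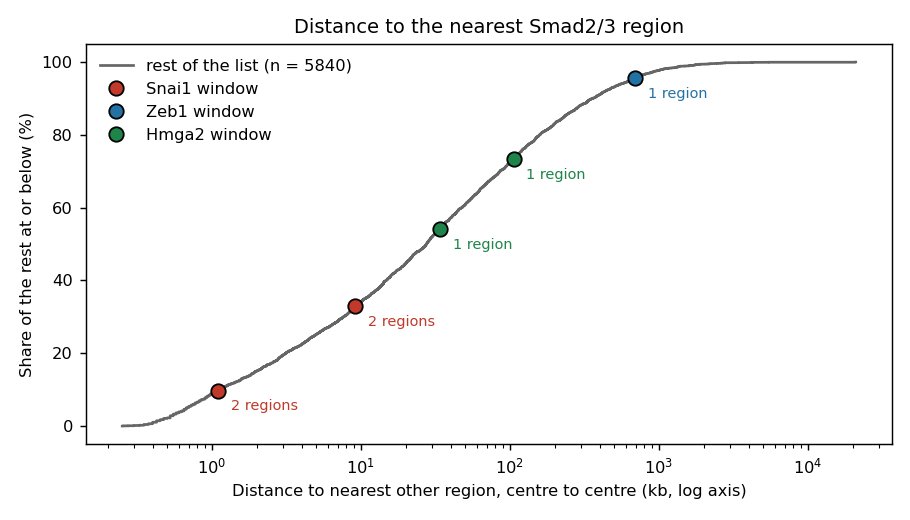
The line gives the share of the rest of the list (%) whose nearest other region lies at or below a distance in kb (log axis), and points mark the members on that line. The Snai1 regions lie at 1.10 and 9.20 kb, those of Hmga2 at 34.0 and 106 kb, and that of Zeb1 at 693.6 kb.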

How the data were processed

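The deposited file lists called regions of 1 ChIP library by chromosome, start, end, list number, score and strand. The submitters' processing notes name Bowtie2 and mm9. Not given in the sources used here are how regions were called, with which threshold and whether against the input. The authors' deposited score, 1000 throughout, was not used. Other values of the authors are positions, with starts as stored on a 50 bp grid, and a running number, per the labels and the file. Starts are printed counted from 1. Sequencing depth is unknown.

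Regions were counted in the 6 windows by centre. As a background, each chromosome was divided from its first to its last region centre into adjacent tiles of each window's length. Distances are between centres. Poisson and binomial (Clopper-Pearson) 95% intervals cover counting error only. Gene neighbours are the next protein-coding genes by start, at any distance, in RefSeq GRCm38.p6, which was used for names and promoters only. The 250 bases before each start were searched on both strands. Counting was tested on simulated data. The named features are the 6 loci, all regions in them and the nearest outside. Members and lists were chosen with earlier results of these data known. Python 3.11.15, numpy 2.4.6 and scipy 1.17.1 were used. No comparison with genes was made, since no mm9 annotation was used here.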

Additional observations from a re-analysis of the deposited data

How the results depend on the processing

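The number of windows with a region was 3 in every alternative run for it, except that it was 2 among regions at or above the median width, where Zeb1 dropped out. The number of regions, 7 as reported, was 6 to 10 when windows changed by 50 kb at both edges or close regions were merged. It was 4 among regions at or above the median width and 4 among the earlier list numbers, as fewer regions were left by construction. The density ratio ranged from 0.884 without the locus Snai1 to 2.41 with narrowed windows, and its interval included 1 in all alternatives. The number of member regions within 12500 bp of another, 4 as reported, was 7 with widened windows, which took in 3 regions above Hmga2, 2 at a distance of 5 kb and 0 without the locus Snai1. The median list number was 3384 with narrowed windows and 3032 without the locus Zeb1, against 1395, and both lie above the 2924.5 of the rest, so the order of members and rest turned. Shifted tiles gave 1.81 windows with a region in place of 1.82. The shift cannot change the 3 windows found, so it is no check of that number. No paired analysis was possible because the ChIP has no replicate, and none could be left out. Arguments from the absence of a region are limited by the unknown depth.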
